A study of Mus musculus with 3 samples.

Results

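The genes described here are those of antigen presentation by the major histocompatibility complex (MHC), which on these arrays are the genes named H2- (the mouse MHC), B2m, Cd74, Ciita, Tap1, Tap2, the Tapbp genes, Nlrc5, Erap1, Cd1d1 and Mr1. A rule on gene names picked them, which came to 53 of 31829 gene names, measured by 64 probes. 39 genes belong to class I presentation and 12 to class II. The other two, H2-Ke2 and H2-Ke6, carry the prefix because they lie in the H2-K region and present no antigen. Each of the 3 arrays compared the RNA of 1 primary diffuse-type gastric cancer, labelled red with Cy5, with that of 1 pool of 5 normal gastric mucosae, labelled green with Cy3. The cancers came from Atp4b-Cre+;Cdh1loxP/loxP;Trp53loxP/loxP mice and the normal mucosae from Atp4b-Cre-;Cdh1loxP/loxP;Trp53loxP/loxP mice, all aged 12 months. Atp4b-Cre is driven by the promoter of a parietal cell gene, that of the proton pump subunit Atp4b, and deletes the floxed genes of E-cadherin (Cdh1) and p53 (Trp53). The normal mucosae had been stripped of stroma mechanically in 30 mM EDTA, a step that the labels do not give for the cancers. Both groups carried the floxed alleles, and Cre is the genetic difference that the labels give. Tumours 1, 2 and 3 are the replicates of those numbers in the labels.

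Class I molecules show peptides from inside the cell to CD8+ T cells, and nearly every nucleated cell carries them. A heavy chain pairs with beta-2-microglobulin (B2m), and peptides cut by the proteasome are pumped into the endoplasmic reticulum by the transporter TAP. Class II molecules show peptides from engulfed proteins to CD4+ T cells. They are carried mainly by dendritic cells, macrophages and B cells, and interferon gamma can turn them on in epithelium, that of the stomach included. The invariant chain (Cd74) fills their groove until H2-DM exchanges it for a peptide, and H2-O restrains that exchange. NLRC5 and CIITA are the transactivators of class I and class II genes, and they act through the factors that bind the X and Y boxes shared by these promoters.

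The X and Y boxes were searched for at the level of DNA, and stretches of the promoters that hold both are shown for the 9 genes where they read forward. The letters searched were ACNGATG, the core of the X box, followed after 10 to 30 bases by ATTGG, the core of the Y box, on either strand, and the 2 cores do not overlap. Sequences are from RefSeq (GRCm38.p6, 250 bases before to 50 after each start), on the plus strand of chromosome 17, 5′ to 3′, with the 2 cores in capitals.
H2-Eb1: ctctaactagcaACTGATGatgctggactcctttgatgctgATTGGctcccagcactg
H2-Eb2: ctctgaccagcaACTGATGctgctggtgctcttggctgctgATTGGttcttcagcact
H2-DMb1: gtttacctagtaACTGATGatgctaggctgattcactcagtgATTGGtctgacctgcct
H2-DMb2: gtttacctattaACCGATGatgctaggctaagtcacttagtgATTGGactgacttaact
H2-D1: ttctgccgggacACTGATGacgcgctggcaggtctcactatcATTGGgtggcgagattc
H2-Q4: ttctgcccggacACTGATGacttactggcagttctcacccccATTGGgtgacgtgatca
H2-Q6: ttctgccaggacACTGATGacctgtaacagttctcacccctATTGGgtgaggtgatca
H2-Q7: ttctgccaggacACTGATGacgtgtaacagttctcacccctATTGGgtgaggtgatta
H2-M3: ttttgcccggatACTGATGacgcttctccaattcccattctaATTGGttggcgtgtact
The first 4 are class II genes and the last 5 class I genes. The stretches lie, in that order, at chr17:34305767-34305824, chr17:34325534-34325591, chr17:34153088-34153146, chr17:34145117-34145175, chr17:35262976-35263034, chr17:35379496-35379554, chr17:35424730-35424787, chr17:35439074-35439131 and chr17:37270171-37270229. In each of them the cores were 22 or 23 bases apart, and the X core began between 51 and 129 bases before the start. The ordered pair was present in 52 of 32851 promoters (0.158%). RefSeq held promoters for 33 of the 51 genes of class I or II, and 10 of the 33 had the pair: 4 of 8 class II genes and 6 of 25 class I genes, of which H2-M10.4 had it on the other strand. The Y core by itself was present in 37.4% of all promoters. A match is a description of these letters, and a promoter without them, within this window, says nothing of the factors.

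Of the 64 probes, 44 (38 genes) were well above background in every red channel or in every green channel, which was the condition for testing a probe. Ratios are log2 of tumour over pool. The term called is used of a probe with an adjusted p under 0.05 and a ratio of at least 2-fold either way, in limma's moderated test against 0 over all 24164 tested probes. Of all tested probes 2039 (8.44%) were called higher and 2203 (9.12%) lower, and at the adjusted p with any fold 5682 (23.5%) were higher and 5499 (22.8%) lower. The median ratio of all tested probes was 0.03, and the SD between arrays had a median of 0.18. Each array had 43020 gene spots, of which 64.0 to 66.8% were well above background in red and 52.5 to 54.2% in green, and no gene spot was saturated. The pool is a single control sample, so the test leaves out the spread among normal mice. Every array had the tumour in red, so that a dye effect cannot be told apart from the difference between tumour and pool. Gastric epithelial markers, with the floxed gene Cdh1 among them, were set against the labels. Of the 12 markers 10 were called lower in the tumours, Cdh1 at -4.24 ± 0.85 (SD, n = 3 arrays, adjusted p = 0.00193), while Epcam, an adhesion molecule of epithelium, was called higher at 1.20. Trp53, the other floxed gene, is not reported here.

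Class II genes were higher in the tumours, by amounts that differed widely between tumours. Of 11 tested probes (10 genes) 6 were called higher, those of H2-Aa, H2-Ab1, H2-DMa, H2-DMb1, H2-Oa and Cd74, and none lower, against 8.44% called higher among all tested probes. The median ratio was 1.48, against 0.03 for all tested probes. In bulk tissue, more cells of a type cannot be told apart from more RNA in each cell. The 6 called genes were 2.78 to 4.48 times as high in the tumours as in the pool. All 11 probes had a positive mean ratio. It turned negative for H2-Eb2 and H2-DMb2 under centring on spike-in controls, and for H2-Eb1 without tumour 2. H2-Eb2, H2-DMb2, H2-Oa and the probes of H2-Ob met the condition for testing through the tumour channel alone, which favours a positive ratio. Of the 6 class II probes that met it in red and in green alike, 5 were called higher. All 6 had a positive mean ratio, and their median was 1.58. The count of calls among all 11 rested on tumour 3. Without it 1 class II probe was called, H2-Eb1, with a class median of 1.60. Without tumour 2 there were 5 calls and a median of 0.97. Where dim probes were not filtered out there were 4 calls, without those of H2-DMa and Cd74.

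H2-Aa, the alpha chain of the classical molecule I-A, had the largest ratio of the class II probes. Its normalised log2 signal was 9.59, 12.28 and 10.71 in tumours 1, 2 and 3, against 8.47, 8.86 and 8.76 in the pool on the same arrays. All 3 tumours lay above all 3 readings of the pool, and tumour 2 stood furthest out. The ratio was 2.16 ± 1.16 (SD, n = 3), 4.48-fold, with an adjusted p of 0.0215 in limma. The probe lies at chr17:34421285-34421344 (mm9, minus strand). Without tumour 3 the ratio was 2.27 with an adjusted p of 0.0882.

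H2-Ab1, the beta chain that pairs with H2-Aa, read 12.43, 14.86 and 13.12 in the tumours and 11.58, 12.63 and 11.78 in the pool. Each tumour was above the pool on its own array, but tumour 1 was below the reading of the pool on array 2. The ratio was 1.47 ± 0.70 (SD, n = 3), 2.78-fold, adjusted p = 0.0167, at chr17:34406296-34406355 (mm9). Its pool signal had an SD of 0.56 between arrays, although the pool is 1 RNA sample, against a median of 0.07 for all tested probes. An SD at least as large was found at 58 tested probes (0.240%).

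H2-Eb1, the beta chain of the other classical molecule, I-E, did not pass the test. It read 11.05, 13.72 and 8.26 in the tumours, and 10.11, 12.15 and 9.62 in the pool. Tumours 1 and 2 were above the pool by 0.94 and 1.57, tumour 3 was below it by a ratio of -1.37, and the groups overlapped. The mean ratio was 0.38 ± 1.55 (SD, n = 3, adjusted p = 0.629), and without tumour 3 it was 1.26 with an adjusted p of 0.0345. The SD of the pool between arrays was 1.34, a spread reached or exceeded by 5 of the 24164 tested probes. In both channels the probe was highest on array 2 and lowest on array 3. The same held in part for the whole class: the pool read highest on array 2 at all 11 tested class II probes, against 13 of 31 class I probes and 29.2% of all tested probes. Array 2 is also the array of the highest tumour readings. Whether signal passed between the channels, or the pool's aliquots differed, was not tested, and ratios of class II on array 2 carry that doubt.

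The remaining beta chain gene, H2-Eb2, read 6.54, 7.25 and 6.77 in the tumours and was not well above background in the pool on any array. Its ratio passed the adjusted p (0.0269) at at least 1.47-fold, short of 2-fold, though it was called at 1.62 with an offset of 0 and at 3.35 with Agilent's processed signals. H2-Ea, the alpha chain of I-E, was not tested, since it was well above background in 1 tumour and on no array in the pool, with ratios of 0.18, 0.47 and 0.32. I-A and I-E thus differed in how they were measured: both chains of I-A were bright and called, whereas of I-E 1 chain was near background and the other was inconsistent between arrays.

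The invariant chain gene Cd74 followed H2-Aa. It read 11.99, 14.43 and 12.99 in the tumours, against 11.27, 11.69 and 11.43 in the pool. All tumours lay above all readings of the pool. The ratio was 1.67 ± 1.01 (SD, n = 3), 3.19-fold, adjusted p = 0.0297, and without tumour 3 the adjusted p was 0.113. Where dim probes were not filtered out, its adjusted p was 0.0513.

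**Figure D1:**
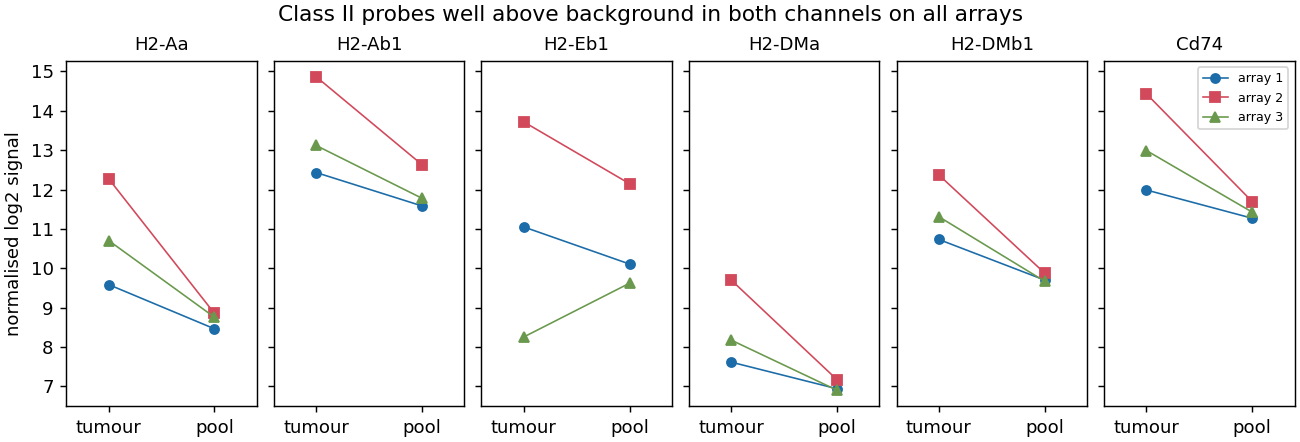
Normalised log2 signal (vertical axis, loess within and Aquantile between arrays) of the 6 class II probes that stood well above background in each channel of each array, with the tumour left of the pool and a line joining the 2 channels of an array. Array 2 is highest in the tumour channel in every panel, and in H2-Eb1 the pool itself moves between 9.62 and 12.15.

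Of the genes of peptide exchange, H2-DMa and H2-DMb1, which form the H2-DM molecule that loads class II, were both called higher. H2-DMb1 read 10.73, 12.37 and 11.31 in the tumours, against 9.70, 9.88 and 9.67 in the pool. H2-DMa read 7.62, 9.70 and 8.18 in the tumours, against 6.94, 7.17 and 6.90 in the pool. Neither gene's tumours overlapped with the pool, and in both tumour 2 was highest and tumour 1 lowest. The ratios were 1.72 ± 0.73 for H2-DMb1 (3.29-fold, adjusted p = 0.0125) and 1.49 ± 0.95 for H2-DMa (2.81-fold, adjusted p = 0.0337; SD, n = 3 each). Without tumour 2 the ratio of H2-DMa was 0.97 and no longer 2-fold, and where dim probes were not filtered out its adjusted p was 0.0573. H2-DMb2, a second beta chain gene of H2-DM, was not well above background in the pool, and its ratio of 0.55 passed the adjusted p (0.0424) at at least 1.32-fold, short of 2-fold, though it was called at 2.15 with an offset of 0 and at 2.31 with Agilent's processed signals.

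H2-Oa and H2-Ob encode H2-O, which restrains H2-DM and is known mainly from B cells. H2-Oa read 7.82, 10.21 and 7.95 in the tumours, against 6.85, 7.62 and 6.77 in the pool, an SD of 0.47 in the pool that 0.521% of tested probes reached. The pool was well above background for it on 2 arrays. Its ratio was 1.58 ± 0.88 (SD, n = 3), 3.00-fold, adjusted p = 0.0241, and tumour 2 stood far above the other two. The 2 probes of H2-Ob did not pass the test, with ratios of 1.16, 2.81 and 0.47 (mean 1.48, adjusted p = 0.0616) and of 0.64, 1.95 and 0.01 (mean 0.86, adjusted p = 0.137). The first was called under 4 other ways of processing, at 2.83 with an offset of 0, 4.67 with Agilent's processed signals, 2.08 with median centring and 1.23 with spike-in centring, and the second at 2.42 with Agilent's signals. They had the same order of tumours, 2, then 1, then 3. H2-Eb1 and H2-DMb2 had this order too. In H2-Oa, as in H2-Aa, H2-Ab1, H2-Eb2, Cd74, H2-DMa and H2-DMb1, tumour 3 was above tumour 1.

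**Figure D2:**
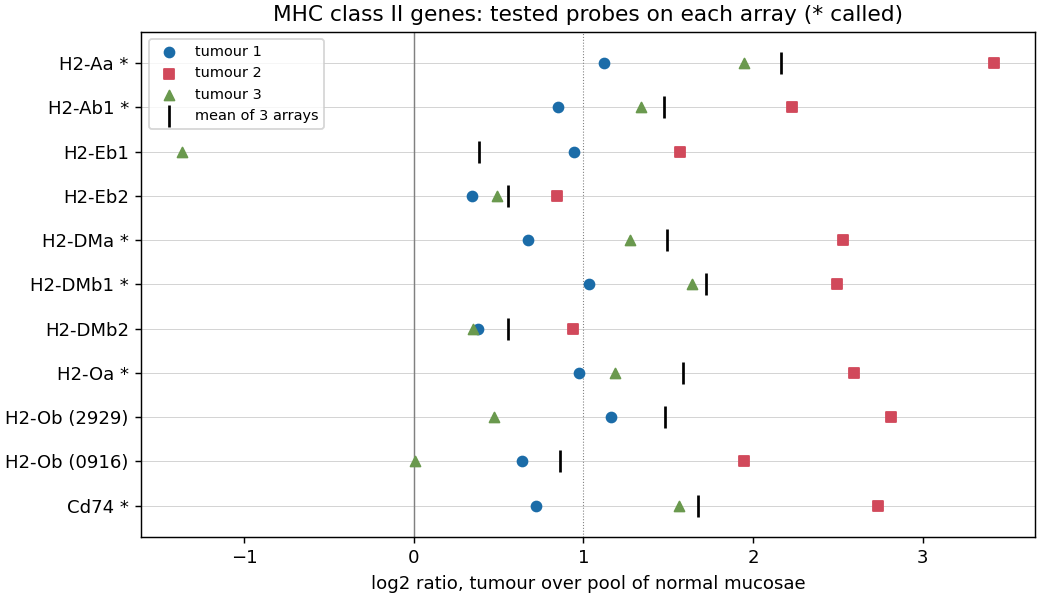
Log2 ratio of tumour over pool (horizontal axis) of the 11 tested class II probes, with a symbol for each tumour and a bar for the mean; the last digits of the probe name tell 2 probes of a gene apart, an asterisk marks a call, and the dotted line is 2-fold. The square of tumour 2 is the highest of the 3 in every row, and H2-Eb1 is the row with a tumour well below 0, at -1.37.

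All 11 tested class II probes had their highest ratio in tumour 2, as had 7452 of all 24164 tested probes (30.8%). The medians over the class were 0.85, 2.49 and 1.19 in tumours 1, 2 and 3. In class I 17 of 31 tested probes (54.8%) were highest in tumour 2, but the medians were 0.39, 0.38 and 0.21, with no tumour far above the others. The transactivator Ciita was not tested: it was well above background in 2 tumours and on no array in the pool, with ratios of 0.05, 0.02 and -0.17. No level of Ciita is drawn from its single probe.

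In class I, the ratios were small and close together. Of 31 tested probes (26 genes) 3 were called higher, those of H2-Q8, H2-M3 and Nlrc5, and none lower, against 8.44% called higher among all tested probes. At the adjusted p with any fold 13 were higher and none lower, against 23.5% and 22.8% of all tested probes, and 10 of the 13 were below 2-fold. The median was 0.30, against 0.03 for all tested probes. Of the 31 mean ratios 28 were positive, and 20 under centring on spike-in controls, where dim probes turned negative. Of the 25 class I probes that met the condition for testing in red and in green alike, 23 were positive and 3 called higher. Ratios of this size depend on the scaling: with the gene spots centred on their median in place of loess the median of all tested probes was 0.70 and that of class I 1.50, and 20 class I probes were called. Relative to all tested probes the class I median lay 0.27 higher, with a range of 0.26 to 0.80 over the ways of processing with all arrays, and the class II median 1.45 higher, with a range of 1.44 to 2.31. These ranges keep to the tested members. With no filter on dim probes and every class I probe counted, the class I median was 0.12, against -0.002 for all probes, a smaller gap than that range holds.

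**Figure D3:**
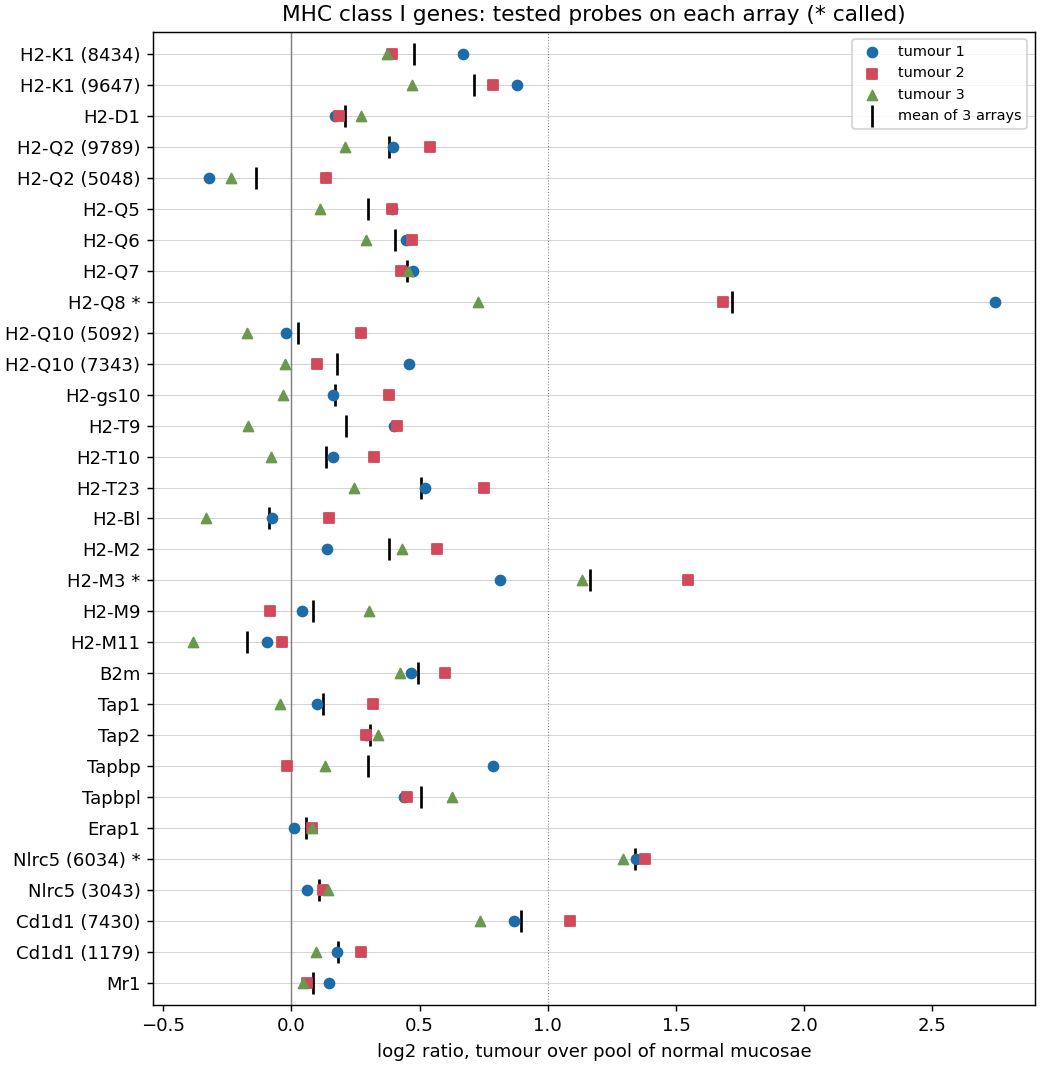
Log2 ratio of tumour over pool (horizontal axis) of the 31 tested class I probes, ordered by role, with a symbol for each tumour and a bar for the mean; the dotted line is 2-fold and an asterisk marks a call. Most rows lie between 0 and 0.7, and H2-Q8, H2-M3 and 1 of the 2 probes of Nlrc5 stand to the right.

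The classical heavy chains, which present peptides to CD8+ T cells, were among the bright members. One probe of H2-K1, printed at 10 spots on each array, read 14.01, 13.83 and 13.78 in the tumours and 13.35, 13.44 and 13.41 in the pool. All tumours were above all readings of the pool, by 0.48 ± 0.17 (SD, n = 3, adjusted p = 0.0231), or 1.39-fold. On array 1 its 10 spots gave a ratio of 0.67 ± 0.09 (SD between spots), on array 2 of 0.39 ± 0.04 and on array 3 of 0.37 ± 0.11. The second H2-K1 probe gave 0.71 ± 0.21 (adjusted p = 0.0108). H2-D1, the other classical gene measured, read 13.68, 13.73 and 13.64 in the tumours and 13.51, 13.55 and 13.37 in the pool, and its ratio of 0.21 did not pass (adjusted p = 0.106). B2m, the light chain, read 13.36, 13.47 and 13.33 in the tumours and 12.90, 12.87 and 12.91 in the pool. Its tumours and pool did not overlap, and the ratio was 0.50 ± 0.09 (SD, n = 3, 1.41-fold, adjusted p = 0.0139).

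Sequence is shared between class I genes, which bears on what a probe of them measures. Of 2016 pairs of the 64 probes 4 shared a run of 18 bases or more. The pair with the longest shared run among tested probes was H2-T23, the gene of the non-classical molecule Qa-1, and the second probe of H2-K1. Both are printed as deposited, with the shared 29 bases in capitals.
H2-T23: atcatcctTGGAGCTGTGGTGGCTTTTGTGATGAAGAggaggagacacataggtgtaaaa
H2-K1: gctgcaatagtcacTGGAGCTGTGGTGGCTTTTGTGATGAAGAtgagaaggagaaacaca
They lie at chr17:36167338-36167574 and chr17:34133984-34134043 (mm9, both on the minus strand). H2-T23 gave 0.51 ± 0.25 (adjusted p = 0.0342) and H2-K1 0.71 there, against 0.48 at its other probe. Cross-hybridisation between such genes was not tested, so ratios of single class I heavy chain genes are uncertain.

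The Q region heavy chains, among them the Qa-2 genes H2-Q6 to H2-Q9, had the widest range of ratios among the class I regions. H2-Q8 read 10.49, 9.49 and 8.59 in the tumours, against 7.75, 7.81 and 7.86 in the pool. All tumours were above the pool, tumour 1 by far the most, with a ratio of 1.72 ± 1.01 (SD, n = 3, 3.29-fold, adjusted p = 0.0274). The call was lost without tumour 2 (adjusted p = 0.0939). The neighbouring Qa-2 genes H2-Q6 and H2-Q7 had ratios of 0.40 (adjusted p = 0.0244) and 0.45 (adjusted p = 0.0142), and the difference between these genes was not tested. The 2 probes of H2-Q2 had ratios of 0.38 (adjusted p = 0.0413) and -0.14 (adjusted p = 0.397), of opposite sign. H2-Q5, H2-Q10 and the probe named H2-gs10, which RefSeq lists as H2-Q4, lay between 0.03 and 0.30 and did not pass. H2-Q1 was not tested.

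Of the T region genes, H2-T23 above passed the adjusted p, while H2-T9 (0.21), H2-T10 (0.13) and H2-Bl (-0.09) did not. RefSeq gives the accession of the H2-T9 probe to H2-T22. H2-T3, H2-T3-like, H2-Tw3, H2-T18 and H2-T24 were not tested. Of the M region genes, H2-M3, which presents N-formylated peptides such as those of bacteria, was called. It read 8.34, 9.10 and 8.75 in the tumours, against 7.53, 7.55 and 7.62 in the pool, and no tumour overlapped with the pool. The ratio was 1.16 ± 0.37 (SD, n = 3, 2.24-fold, adjusted p = 0.00743), and without tumour 2 it was 0.97, just under 2-fold. H2-M2, H2-M9 and H2-M11 did not pass, and H2-M1, H2-M5 and the 5 measured H2-M10 genes were not tested. The 20 probes left out of the test, from all regions, had mean ratios between -0.23 and 0.32.

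The transactivator of class I, Nlrc5, had the smallest adjusted p of the members that were called higher. Its brighter probe read 8.86, 8.95 and 8.59 in the tumours, against 7.51, 7.57 and 7.30 in the pool. The 3 tumours had nearly the same ratio, 1.35, 1.38 and 1.29, with a mean of 1.34 ± 0.04 (SD, n = 3, 2.53-fold, adjusted p = 0.00115), and the call held under each of the 12 other ways of processing. The second probe, not well above background in the pool on any array, gave 0.11 (adjusted p = 0.333). That ratio of a probe near background moved with the processing, to 1.85 (adjusted p = 0.00203) with Agilent's processed signals and to -1.01 under centring on spike-in controls, so it sets no value against the first probe.

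The genes of peptide supply moved little. Tap2, a subunit of the peptide transporter, had ratios of 0.29, 0.29 and 0.34 (adjusted p = 0.0399), and Tapbpl, a tapasin-like peptide editor, had 0.44, 0.45 and 0.63 (adjusted p = 0.0139). Tap1, the other subunit of the transporter, had 0.10, 0.32 and -0.04 over 10 spots an array, with an SD between spots of 0.10 to 0.11, and did not pass (adjusted p = 0.387). Tapbp, or tapasin, which bridges class I and the transporter, had 0.79, -0.02 and 0.13 (adjusted p = 0.241). The trimming peptidase Erap1 had 0.06 (adjusted p = 0.603). Both genes that passed did so below 2-fold.

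Of the class I-like molecules encoded outside the MHC, Cd1d1, which presents lipids to NKT cells, read 7.88, 7.96 and 7.58 in the tumours, against 7.01, 6.88 and 6.85 in the pool. Its ratio was 0.90 ± 0.18 (SD, n = 3, 1.86-fold, adjusted p = 0.00488), below 2-fold. It was called at 1.51 with an offset of 0, 1.80 with Agilent's processed signals and in the authors' deposited values, and 1.54 with median centring. Its second probe, not above background in the pool, gave 0.18 (adjusted p = 0.158), and 1.57 with Agilent's signals, where it was called. Mr1, which presents vitamin B metabolites to MAIT cells, had 0.08 (adjusted p = 0.445). Of the H2-K region genes of neither class, H2-Ke6, a steroid dehydrogenase gene, was called lower, at 10.49 to 10.77 in the tumours against 12.13 to 12.15 in the pool. Its ratio was -1.48 ± 0.16 (SD, n = 3, adjusted p = 0.00139), and -0.21 with that median centring (adjusted p = 0.221). H2-Ke2, the prefoldin gene Pfdn6 in RefSeq, had -0.42 (adjusted p = 0.0858).

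Other genes of the pathway were described as lists, whose counts stand against 8.44% called higher and 9.12% called lower of all tested probes. Of 6 genes of the immunoproteasome and of proteasome activators 2 were called higher and none lower, with a median of 0.58: Psmb8, an inducible catalytic subunit, at 1.83 ± 0.36 (adjusted p = 0.00246) and Psme3, a proteasome activator, at 1.17. The others were not called: Psmb10 had 0.65, Psme2 0.51, Psme1 0.24, and Psmb9, the subunit encoded beside Tap1, 0.07. None of the 3 constitutive catalytic subunits was called, and the brightest, Psmb5, had -0.18. Of 6 endoplasmic reticulum partners none was called, and the brightest, the chaperone Hspa5, had -0.23. Of 11 genes of endosomal processing 4 were called higher and none lower, although the median was -0.16. These were the proteases Ctss at 4.26 ± 0.76 (adjusted p = 0.00151), Lgmn at 2.21, Ctsh at 1.97 and Ctsl at 1.51. At the adjusted p with any fold 5 of the 11 were higher and 4 lower, against 23.5% and 22.8% of all tested probes. The 4 lower ones were all below 2-fold. Ctss, which degrades the invariant chain, was 19.1 times as high in the tumours, with ratios of 3.38, 4.68 and 4.70, so it was not highest in tumour 2 alone.

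Of 15 tested genes of transcription and the interferon gamma axis, from a list of 17, 3 were called higher and none lower, with a median of 0.21: Irf8 at 1.74, Irf1 at 1.34 and Socs1 at 1.14. Ifng itself was not well above background in either channel on any array. Of 19 tested genes induced by interferon, from a list of 20, 2 were called higher and none lower, a share near that of all tested probes, with a median of 0.39: Bst2 at 1.29 and Gbp3 at 1.12. Of 8 costimulatory and checkpoint ligands 4 were called higher and none lower, with a median of 1.04: Tnfsf9 at 1.81, Cd83 at 1.45, Cd86 at 1.30 and Cd80 at 1.16. In 7 of these 8 the ratio was highest in tumour 2, as in class II. Among these 3 lists, costimulatory ligands had the highest share of members called.

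Markers of the cells that carry class II were called higher in part. Of 6 tested B cell markers, from a list of 8, 4 were called higher, and all 6 were highest in tumour 2. Their medians were 1.38, 2.63 and 1.01 in tumours 1, 2 and 3, and the summed signal of the list ran from 2122 to 8135 in the tumours against 800 to 973 in the pool. Such sums, here and below, count every listed gene on the array, those at background included. In the pool 5 of the 8 B cell markers were at background on all arrays, so its sum is not a measured level. Ms4a1, Pax5, Cr2 and Blk were among the markers not well above background in the pool on any array, and Ms4a1 was at least 6.88-fold higher in the tumours. Of 6 tested dendritic cell markers, from a list of 9, 2 were called higher, with medians of 0.75, 1.40 and 0.45 and sums of 25140 to 31014 in the tumours against 14948 to 17133 in the pool, most of it from Siglech, whose ratio was 0.71. Ccr7, at ratios of 1.25, 3.58 and 1.68, and Itgax, at 1.11, 2.91 and 2.09, were the 2 called, whereas Flt3, Zbtb46, Xcr1, Clec9a and Cd209a were not well above background in the pool. Of 9 tested macrophage markers, from a list of 10, 7 were called higher, with medians of 2.02, 2.37 and 2.17 and sums of 14780 to 21667 in the tumours against 3674 to 4035 in the pool. Cd68 and Cd163 were not well above background in the pool, and C1qb, at 2.74, had the largest ratio. Tumour 2 was thus highest in the medians of class II and of B cell, dendritic cell and macrophage markers. The lowest was tumour 1 in class II and macrophage markers, and tumour 3 in B cell and dendritic cell markers. The macrophage medians lay closer together than those of the other lists here, from 2.02 to 2.37. The part of these cells, and of the removal of stroma from the normal mucosae, in the class II ratios was not tested.

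**Figure D4:**
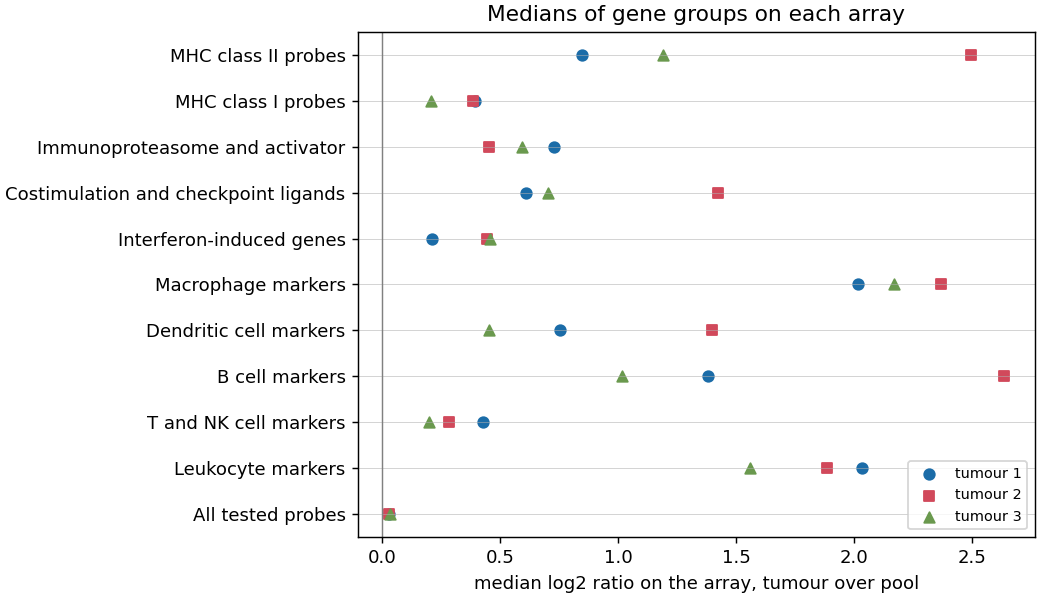
Median log2 ratio of tumour over pool (horizontal axis) on each array for class II, class I, lists of the pathway, lists of cell markers and all tested probes, with a symbol for each tumour. Class II (0.85, 2.49 and 1.19), B cell markers and costimulatory ligands have tumour 2 far to the right, whereas class I and all tested probes have the 3 tumours close together.

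T and NK cells read these molecules, and their markers moved in both directions. Of 8 tested markers from a list of 12, 1 was called higher, Cd3d at 1.20, and none lower, with medians of 0.43, 0.28 and 0.20. Cd3g at 0.81 (adjusted p = 0.0113) and Cd4 at -0.65 (adjusted p = 0.00884) passed the adjusted p below 2-fold, and Gzma, with ratios of 2.33, 0.71 and 0.66, did not pass (adjusted p = 0.0551). The summed signal was 1893 to 2524 in the tumours against 1861 to 2011 in the pool. Cd3g, Cd8a, Cd8b1, Cd247, Ncr1, Klrb1c, Gzma and Gzmb were not well above background in the pool. All 3 leukocyte markers were called higher, with a median of 1.83. Of 7 fibroblast markers 6 were called higher, with a median of 2.65, and of 5 endothelial markers 2, with a median of 0.25. Another 1 of the endothelial markers was lower at the adjusted p, below 2-fold.

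**Figure D5:**
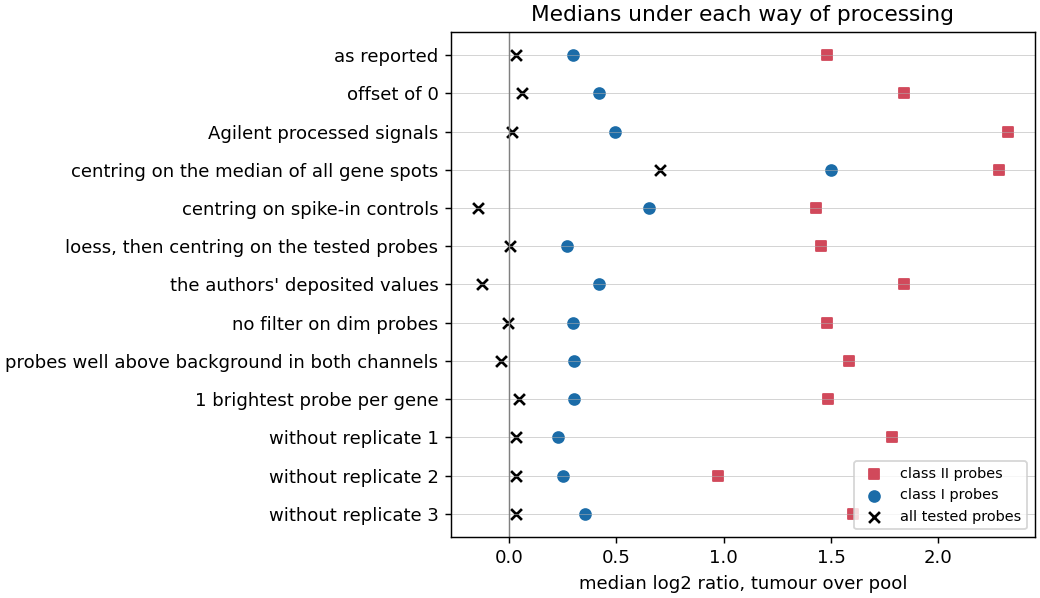
Median log2 ratio of tumour over pool (horizontal axis) of the tested class II probes, the tested class I probes and all tested probes under each way of processing and with each array left out. Class II lies right of class I in every row, class II is lowest without tumour 2, and the medians of class I and of all tested probes move right together where gene spots were centred on their median in place of loess.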

How the data were processed

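Red and green intensity values of the spots (means and median local backgrounds) were deposited by the authors, made with Agilent Feature Extraction, whose version is 10.7.3.1 per the file headers but 9.5.3 per the submitters' processing notes. The value table deposited by the authors is in log2 (tumour over pool); 99.8% of its values lay within 0.01 of the scanner's log10 ratio, which the deposited scanner files hold, put on the log2 scale. RNA was 250 ng an array. All arrays shared 1 slide and scan, so no batch could be tested. Probe coordinates are mm9 per the file headers; symbols of list genes come from RefSeq (26055 of 39429 probes matched).

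Signals were corrected with normexp (offset 50), normalised by loess with control spots at weight 0, and averaged over the spots of a probe, with flagged spots left out (limma 3.58.1, R 4.3.3). A probe was kept if well above background on all 3 arrays in 1 channel, and its ratios were tested against 0 by a two-sided moderated test (lmFit, eBayes) with Benjamini-Hochberg adjustment. "At least" marks a probe not above background in the pool: its fold is against the higher of the pool's own signal and the lowest signal above background, after loess and Aquantile, and is open to dye bias. The number of arrays limits the precision. The labels call the tumours biological replicates. Members and gene lists were chosen with earlier results of these data known. All members are given. Of each pathway list, up to 4 called genes with the largest ratio are given, or the brightest gene where none was called. Markers of cell types are given by counts and medians, and only some are named. Further genes (Psmb9, Psmb10, Psme1, Psme2, Ifng, Siglech, Cd3g, Cd4, Gzma, and markers at background) were picked after their values were seen. Of the B cell markers 1 is counted in its list but not reported here by itself.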

Additional observations from a re-analysis of the deposited data

How the results depend on the processing

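The count of probes called higher, 2039 as reported, was 3743 with an offset of 0, 4456 with Agilent's processed signals, 9040 with gene spots centred on their median and 3161 with spike-in controls as the centre. The count called lower, 2203 as reported, was 3851, 653 and 3435 under the last 3 of these and 3398 in the authors' deposited values. Calls were 93.3% higher with median centring, 38.7% in the deposited values and 48.1% as reported. Class I calls were 7 with Agilent's signals, 20 with median centring and 8 with spike-in centring, against 3, and 1 to 3 with each array left out (1 without replicate 2). Class II calls were 10 with Agilent's signals, 4 where dim probes stayed in and 9 at offset 0, against 6, and 1 to 6 with each array left out (1 without replicate 3). The class I median, 0.30, was 0.42 with an offset of 0, 0.50 with Agilent's signals, 1.50 with median centring, 0.65 with spike-in centring, 0.42 in the deposited values and 0.12 with no filter on dim probes, where all its probes count. The class II median ran from 0.97 to 2.32. Values of opposite sign that were called were 1.11 for a probe of H2-Q2 and 1.04 for H2-Bl with median centring, and -1.01 for a probe of Nlrc5 with spike-in centring; the cause was not tested. The designed ratios of the spike-in controls were not used, since no source here gives them. No paired analysis was possible because the pool is 1 sample and each array already sets a tumour against it. Dim members are limited by signal over background: 20 of 64 probes could not be tested.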
